A study of Mus musculus with 12 samples.

Results

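The fast skeletal muscle genes described here are 10 genes of the contractile apparatus and energy supply of fast-twitch muscle fibers, measured in mouse tumors grown under the skin. They are Acta1, Ckm, Myh1, Myh2, Myh4, Mylpf, Tnnt3, Tnni2, Tnnc2 and Actn3, and they were matched by symbol to 10 of the 55401 Ensembl genes in the count table. They were chosen by the measured spread of muscle gene scores between tumors of the same group, so their own spread within groups is given as a description and was not tested. Differences between the treatment groups were tested, but the spread between tumors of a group is also the error of that test, so the choice of genes itself favors few calls.

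The 12 RNA-seq libraries came from day 21 tumors of mice implanted subcutaneously in the flanks with 125000 TC2Ras cells, a mouse prostate cancer line. The methods combine left and right flank samples of a mouse and divide tumors between RNA and flow cytometry. Only a small part of the tissue was used for RNA. The mice in the Control group (labelled Control1) received TC2Ras cells alone and water with 0 ppb inorganic arsenic (iAs). The ASC group received TC2Ras cells mixed with 1% ASC-GFP, adipose-derived stromal cells from mice that carry GFP under the ubiquitin C promoter, and 0 ppb iAs. The As300 group (labelled A300) received TC2Ras cells alone and 300 ppb iAs in drinking water, and the ASC_As300 group (labelled ASC300) received both the 1% ASC-GFP cells and 300 ppb iAs. All mice, controls included, were kept on low-arsenic AIN-76A chow and Milli-Q water for 2 weeks before implantation, and each group had 3 libraries. Age of the mice is not given in the sources used here.

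Sarcomeres, the contractile units of striated muscle, slide actin filaments past myosin filaments when calcium binds the troponin complex. Fast-twitch fibers use their own forms of these proteins: the heavy chains IIA (Myh2), IIX (Myh1) and IIB (Myh4), the fast regulatory light chain (Mylpf), the fast troponins T (Tnnt3), I (Tnni2) and C (Tnnc2), and alpha-actinin-3 (Actn3) in the Z-disc. Acta1 encodes the actin of skeletal muscle thin filaments, and Ckm the muscle creatine kinase that regenerates ATP from phosphocreatine. These proteins are made in multinucleated muscle fibers.

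The sequences shown are the 250 bases before the RefSeq start (GRCm38.p6) of Acta1, the member with the highest mean level, and of Myh1, Myh2 and Myh4, neighbouring genes of the fast myosin cluster on chromosome 11 whose proportions differed between tumors. Capitals mark matches to CANNTG (the E-box), TATAAA, the MEF2 motif or the CArG box, searched on both strands; CAGCTG is a subset of CANNTG. The windows are chr8:123894776-123895025 (minus strand) for Acta1 and, on the plus strand, chr11:67199852-67200101 for Myh1, chr11:67170777-67171026 for Myh2 and chr11:67237562-67237811 for Myh4. Each is written 5′ to 3′ along the gene.
Acta1: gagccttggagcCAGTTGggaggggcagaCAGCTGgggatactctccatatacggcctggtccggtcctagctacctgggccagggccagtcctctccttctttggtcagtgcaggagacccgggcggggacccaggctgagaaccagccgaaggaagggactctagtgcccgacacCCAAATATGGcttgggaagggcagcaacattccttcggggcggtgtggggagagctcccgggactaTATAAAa
Myh1: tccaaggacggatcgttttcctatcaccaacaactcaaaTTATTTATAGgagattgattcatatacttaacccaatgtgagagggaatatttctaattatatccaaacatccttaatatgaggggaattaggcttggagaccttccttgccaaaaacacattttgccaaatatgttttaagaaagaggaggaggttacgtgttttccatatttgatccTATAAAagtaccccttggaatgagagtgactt
Myh2: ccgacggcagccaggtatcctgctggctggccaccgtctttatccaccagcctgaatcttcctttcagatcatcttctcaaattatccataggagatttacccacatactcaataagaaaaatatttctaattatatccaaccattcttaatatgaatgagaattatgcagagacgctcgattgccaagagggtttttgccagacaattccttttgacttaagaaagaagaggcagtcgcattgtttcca
Myh4: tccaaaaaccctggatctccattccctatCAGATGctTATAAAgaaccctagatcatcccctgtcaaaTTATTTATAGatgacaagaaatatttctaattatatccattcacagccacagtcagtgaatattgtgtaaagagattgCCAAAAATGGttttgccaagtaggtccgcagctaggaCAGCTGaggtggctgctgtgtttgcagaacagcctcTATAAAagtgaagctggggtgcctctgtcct

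Promoters were matched for 7 of the 10 members, and the matches are descriptions of letters, not of binding. CANNTG was present in 5 of the 7 windows, beside 66.2% of the 32851 promoters in the table, and CAGCTG in 4 of 7, beside 13.0%. TATAAA was present in 3 of 7, beside 12.4%. The MEF2 motif was found in Myh1 and Myh4, beside 2.92% of all promoters, and the CArG box, the element bound by serum response factor, in Acta1 and Myh4, beside 1.47%. In Myh1 and in Myh4, 1 of the TATAAA matches, on the opposite strand, lies inside the MEF2 match. The Myh2 window held no match to any of the 5 patterns.

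Totals were 39157647 to 55168642 counts per tumor. Counts of 4 were more frequent than counts of 3 or 5 in every tumor (1137 to 1298 genes against 618 to 795 and 380 to 414), so a floor of 12 counts was used as the limit that a count of 0 allows, and counts below it are not read as differences. The labels name the cell type as adipose-derived mesenchymal/stromal cells, whereas the methods describe pieces of excised tumors. The 12 stromal markers were present in every tumor, at a summed 4638 to 8681 CPM (counts scaled to a common library size with TMM), and of the prostate epithelial markers Krt8 was present at 24.0 to 337 CPM while Pbsn had 0 counts throughout. Control replicate 1 stood apart in lymphoid genes: its 12 B cell, plasma cell and lymph node markers summed to 304.8 CPM, against 10.4 to 38.1 CPM elsewhere.

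Fast muscle transcripts varied between tumors of every group, most in Control and As300 and least in ASC. The 10 genes summed to 2.73, 1822 and 7.55 CPM in Control replicates 1, 2 and 3, to 50.9, 370.9 and 146.1 CPM in the ASC tumors, to 1819, 37.9 and 5.65 CPM in the As300 tumors and to 59.8, 142.3 and 5.70 CPM in the ASC_As300 tumors. The highest and the lowest of all 12 tumors, 668.5-fold apart, were both Control tumors. The fold between the highest and lowest tumor of a group was 322.1 in As300, 25 in ASC_As300 and 7.28 in ASC. Control replicate 2 and As300 replicate 1 together held 81.4% of the summed member CPM of the 12 tumors. In bulk tumors, fewer muscle fibers and less RNA per fiber cannot be told apart, and the cells that made these transcripts were not identified.

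**Figure D1:**
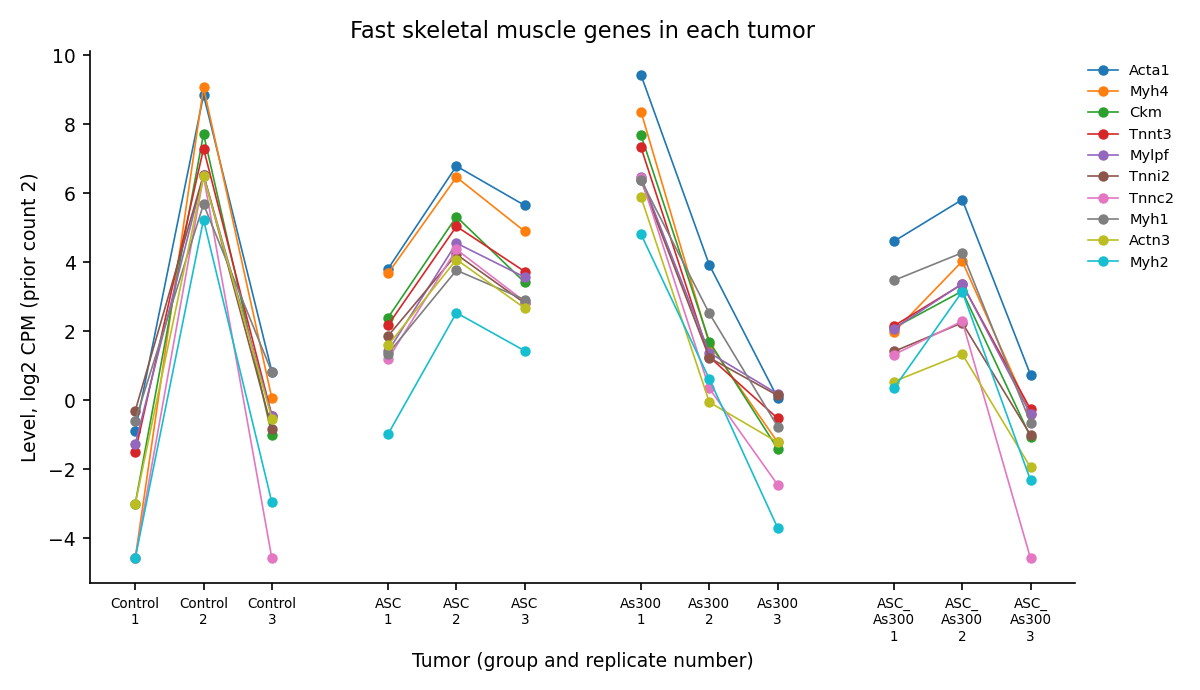
Level of each of the 10 fast skeletal muscle genes (y axis, log2 CPM with a prior count of 2) in each of the 12 tumors (x axis, by group and replicate number); lines link the points of a gene within a group and carry no order. All 10 genes were highest in Control replicate 2 and As300 replicate 1 and were low in Control replicates 1 and 3, As300 replicate 3 and ASC_As300 replicate 3.

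Acta1, the thin filament actin, had the highest mean of the members (118.9 CPM over the 12 tumors). Its levels were 0.496, 461.0 and 1.74 CPM in Control, 14.0, 110.6 and 50.1 CPM in ASC, 690.6, 15.1 and 1.0 CPM in As300 and 24.3, 56.3 and 1.62 CPM in ASC_As300. The ranges of all 4 groups overlapped. Per kilobase of exon, Acta1 made up 27.5% to 42.6% of the summed member signal in the 8 tumors with at least 100 Acta1 counts. As300 replicate 1 and Control replicate 2 stood above the other tumors, and ASC replicate 2 came next.

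The myosin heavy chain Myh4, the motor of the fastest fibers, followed with 0, 538.3 and 0.998 CPM in Control, 12.8, 88.4 and 29.7 CPM in ASC, 330.9, 3.07 and 0.388 CPM in As300 and 3.89, 16.3 and 0.712 CPM in ASC_As300. It had 28068 counts in Control replicate 2 and 0 counts in Control replicate 1, tumors of the same group. Myh1 was at 0.620, 51.3 and 1.71 CPM in Control, 2.51, 13.6 and 7.50 CPM in ASC, 83.7, 5.68 and 0.547 CPM in As300 and 11.1, 19.3 and 0.593 CPM in ASC_As300. Myh2, the heavy chain of fast oxidative fibers and the lowest member, reached 37.7 CPM in Control replicate 2, 28.1 CPM in As300 replicate 1 and 8.83 CPM in ASC_As300 replicate 2, and had 0 to 8 counts in Control replicates 1 and 3, As300 replicate 3 and ASC_As300 replicate 3. Per kilobase of exon, Myh4 was above Myh1 in both tumors with the most muscle RNA and in every ASC tumor. Myh1 was above Myh4 in As300 replicate 2 and in ASC_As300 replicates 1 and 2. At lower counts, Myh1 was also above Myh4 in Control replicates 1 and 3 and As300 replicate 3, but not in ASC_As300 replicate 3.

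Ckm, the creatine kinase, was at 0.0826, 211.1 and 0.455 CPM in Control, 5.22, 40.0 and 10.6 CPM in ASC, 206.3, 3.21 and 0.335 CPM in As300 and 4.24, 8.92 and 0.435 CPM in ASC_As300. Control replicate 2 and As300 replicate 1 were nearly level. Ckm also tracked the other members most closely: its log2 CPM correlated with the mean of the other 9 at r = 0.997 over the 12 tumors, the highest of the 10 genes.

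The regulatory proteins of the filaments were also highest in Control replicate 2 and As300 replicate 1. Tnnt3, which anchors troponin to tropomyosin, was at 157.2 CPM in Control replicate 2 and 161.2 CPM in As300 replicate 1 and between 0.310 and 32.9 CPM in the other 10 tumors. Tnni2, the inhibitory subunit, was at 92.9 and 82.9 CPM in that pair and 0.455 to 18.7 CPM elsewhere, and Tnnc2, the calcium-binding subunit, was at 89.9 and 87.3 CPM and 0 to 20.7 CPM elsewhere. Mylpf was at 92.8 and 88.7 CPM against 0.372 to 23.5 CPM, and Actn3 at 90.3 and 59.3 CPM against 0.0826 to 16.9 CPM. Tnnc2 had 0 counts in Control replicates 1 and 3 and in ASC_As300 replicate 3, each of which allows up to 12 counts.

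The order of tumors was shared by the members but not identical. Either Control replicate 2 or As300 replicate 1 was highest for each of the 10 genes, and the other was second. Next came ASC replicate 2 for 8 genes and ASC_As300 replicate 2 for Myh1 and Myh2. The lowest tumors were not ordered, since 5 members were at 0 to 4 counts in Control replicate 1 and 3 of those, Myh2, Tnnc2 and Actn3, were also under the floor of 12 counts in other tumors. Pairwise correlations between members over the 12 tumors were 0.899 to 0.994 (median 0.968 of 45 pairs), and Myh1 was the least like the rest (r = 0.947 with the mean of the other 9). All values within a tumor share 1 library.

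The spread that led to the choice of these genes was set beside that of all genes that passed the filter on low counts, which all 10 members passed. The SD of log2 CPM within groups, pooled over the 4 groups, was 2.84 (Myh1) to 4.45 (Myh4), against a median of 0.28 and a 99th percentile of 1.98 over 20818 genes. Myh4 ranked 3 and Tnnc2 4 from the top, Ckm 10, Acta1 11, Myh2 12, Tnnt3 24, Actn3 30, Mylpf 49, Tnni2 65 and Myh1 66. For Acta1 the SD was 5.20 in Control and 4.71 in As300, and 1.5 in ASC and 2.66 in ASC_As300, each from 3 tumors.

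**Figure D2:**
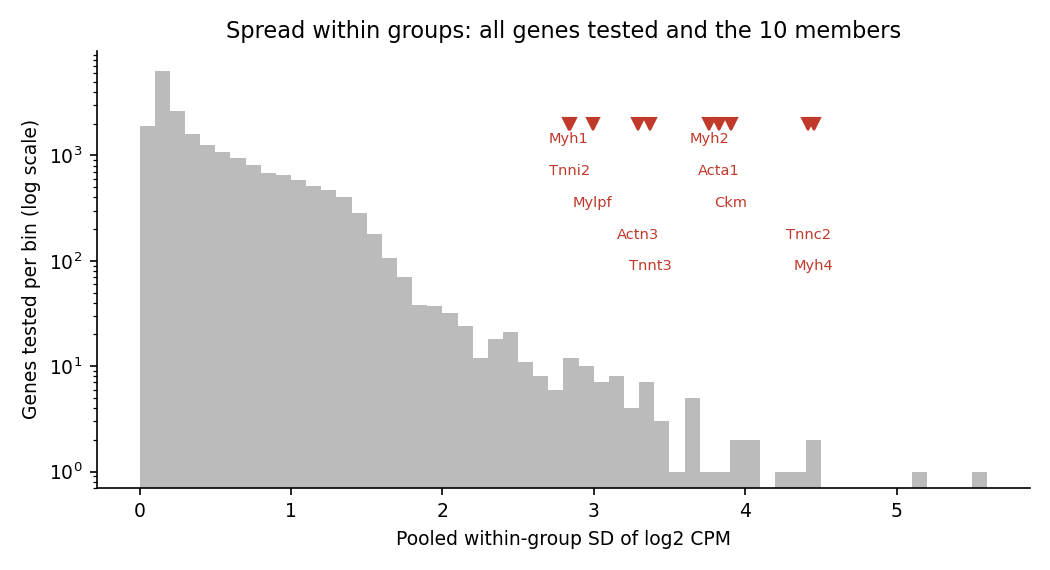
Number of genes tested (y axis, log scale) by pooled within-group SD of log2 CPM (x axis, bins of 0.1); red triangles mark the 10 members, placed at 1 height for display. The members lie between 2.84 and 4.45, to the right of the 99th percentile of 1.98.

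The design asks whether ASC co-implantation, iAs or both changed gene expression relative to tumors of TC2Ras cells alone, and for the fast muscle genes, chosen for a wide spread within groups, no such difference was detectable. In edgeR's quasi-likelihood F test over 20818 genes, with calls at a Benjamini-Hochberg adjusted p under 0.05 and at least 1.5-fold, 0 of 10 members were called in ASC against Control, where 0.721% of all genes tested were called. In As300 against Control 0 of 10 were called beside 1.06% of all genes, and in ASC_As300 against Control 0 of 10 beside 0.807%. No member reached an unadjusted p under 0.05 in any of the 3, beside 15.4%, 24.1% and 15.2% of all genes, and DESeq2 also called 0, although it gave no adjusted p for Ckm, Myh4, Tnni2 and Actn3. In none of the 3 comparisons did a member have groups that did not overlap, beside 18.9%, 29.9% and 25.6% of all genes tested. The 3 comparisons share the Control tumors. The methods combine both flank tumors of a mouse, but the labels only number the libraries, so the p-values measure the spread between these libraries.

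With ASC alone, all 10 members had lower fitted means than Control, none of them past the test. Acta1 had a log2 fold change of -1.41 ± 2.04 (SE, adjusted p = 0.799, edgeR), Myh4 of -2.05 ± 2.18 (adjusted p = 0.712) and Ckm of -1.93 ± 2.05 (adjusted p = 0.712). The other 7 lay between -2.10 (Myh2) and -1.19 (Myh1), and the median of the 10 was -1.67, beside -0.004 over all genes tested. The ASC tumors nevertheless each had more summed member CPM than Control replicates 1 and 3. The median was 0.53 with the replicate number as a block and 5.41 without Control replicate 2, and no member was called in either fit.

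With iAs alone, 3 of 10 members had higher and 7 lower fitted means than Control. The log2 fold change was 0.61 ± 2.0 for Acta1 (adjusted p = 0.899, edgeR), -0.69 ± 2.10 for Myh4 (adjusted p = 0.890) and -0.02 ± 1.97 for Ckm (adjusted p = 0.998). The other 7 lay between -0.59 (Actn3) and 0.74 (Myh1), with a median of -0.03 over the 10, beside -0.03 over all genes tested. In each group 1 tumor of 3 held most of the fast muscle counts: As300 replicate 1 and Control replicate 2. Leaving out As300 replicate 1 moved the median to -4.71 and leaving out Control replicate 2 moved it to 7.28, with 0 members called in either fit.

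With both ASC and iAs, all 10 members had lower fitted means than Control. Myh4 had a log2 fold change of -4.69 ± 2.47 (adjusted p = 0.395, edgeR), Ckm of -3.96 ± 2.26 (adjusted p = 0.433) and Acta1 of -2.49 ± 2.12 (adjusted p = 0.616). The other 7 lay between -4.46 (Actn3, adjusted p = 0.345, the lowest of the members) and -0.79 (Myh1), and the median was -3.48 beside -0.02 over all genes tested. The ASC_As300 group had no tumor above 142.3 summed CPM, while 2 of the 3 Control tumors were at 7.55 or below. Without Control replicate 2 the median was 3.60.

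**Figure D3:**
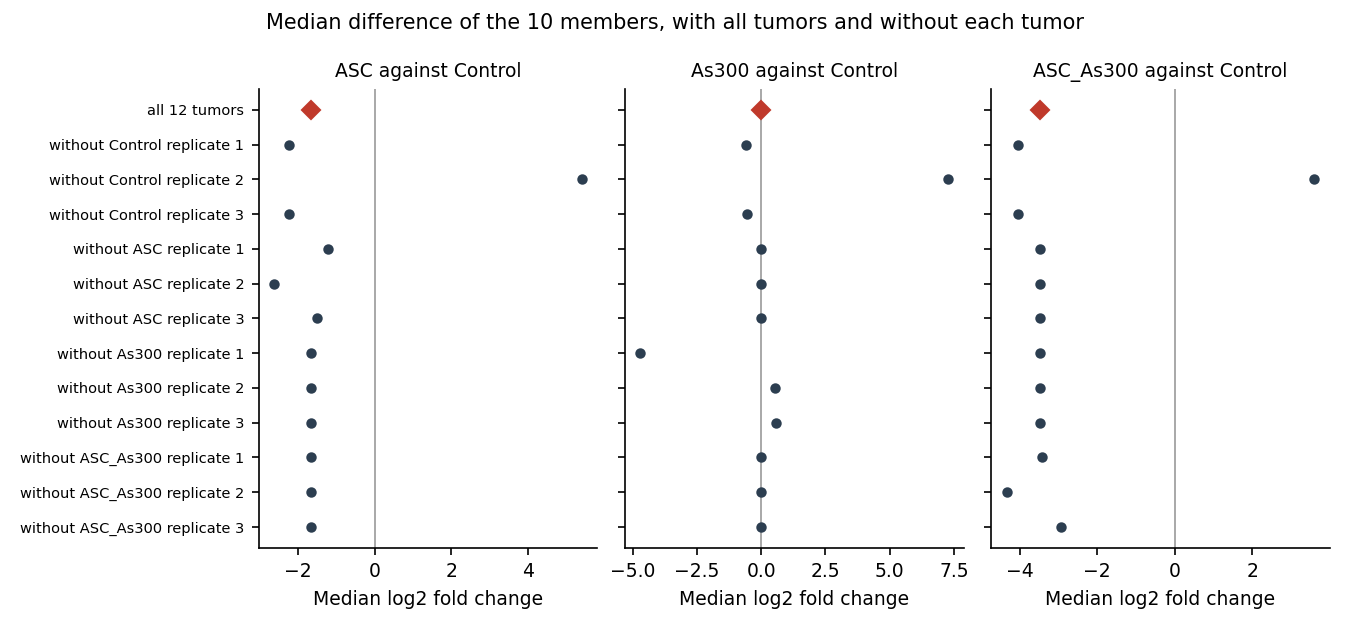
Median log2 fold change of the 10 members against Control (x axis) in 3 comparisons, with all 12 tumors (red diamond) and without each tumor in turn (dark points, y axis). The median moved from -1.67 to 5.41, from -0.03 to 7.28 and from -3.48 to 3.60 when Control replicate 2 was left out.

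The interaction, which asks whether the iAs difference changed with ASC, gave 0 calls among the members and 0% of all genes tested in edgeR, and 0 members at an unadjusted p under 0.05 beside 13.6% of all genes. DESeq2 called 123 genes and 0 members. Member values ran from -2.07 (Actn3) to 0.57 (Myh2) on the log2 scale, with adjusted p from 0.785 to 0.965 in edgeR. The median of -1.77 became 3.25 without As300 replicate 1 and -8.50 without Control replicate 2. The test for any difference among the 4 groups gave adjusted p of 0.525 (Actn3) to 0.847 (Myh2) in edgeR, with 0 of 10 called, beside 1.52% of all genes. DESeq2 gave no adjusted p for 5 members in the interaction and 4 in the 4-group test.

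The members also varied among themselves. Per kilobase of exon, taken from the first-listed GENCODE M21 transcript, Myh4 made up 85.7% of the summed Myh1, Myh2 and Myh4 signal in Control replicate 2 and 74.6% in As300 replicate 1. In the ASC tumors the Myh4 share was 81.0%, 81.9% and 74.3%, in As300 replicate 2 it was 29.7%, and in ASC_As300 replicates 1 and 2 it was 23.8% and 36.4%. Control replicate 3, with 129 counts for the 3 genes, was at 35.4%, and the 3 tumors with under 100 counts were at 0% (Control replicate 1, 30 counts), 39.7% (As300 replicate 3, 55 counts) and 48.4% (ASC_As300 replicate 3, 74 counts). Exact (Clopper-Pearson) 95% intervals on raw counts, taken as 4 counts per read pair, were 85% to 86.6% in Control replicate 2, 22.5% to 39.3% in As300 replicate 2, 18.4% to 30.1% in ASC_As300 replicate 1 and 21.1% to 56.3% in Control replicate 3, and cover counting error only. Over the 9 tumors with at least 100 counts the Myh1 share was 8.28% to 68.7% and the Myh2 share 2.95% to 19.7%, highest in ASC_As300 replicate 2.

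The Myh4 share did not separate Control or As300 tumors from the other groups, since each of these groups held a tumor above 74% and a tumor below 36%. The 3 ASC tumors (74.3% to 81.9%) and the 3 ASC_As300 tumors (23.8% to 48.4%) did not overlap in these values, but the intervals of ASC_As300 replicate 3 (26.0% to 74.0%, 74 counts) and ASC replicate 3 (69.9% to 78.4%) did. This was noticed after the values were seen, and 3 tumors against 3 cannot give an exact two-sided p below 0.1. Of the 75-base windows of Myh1 17.0% also occur in transcripts of other genes (12.9% in Myh2), of Myh2 16.5% and of Myh4 9.68%. Reads of these 3 genes may therefore be in part interchangeable, which adds uncertainty to their shares that was not estimated. Acta1 shared 0.437% and the other 6 members none.

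**Figure D4:**
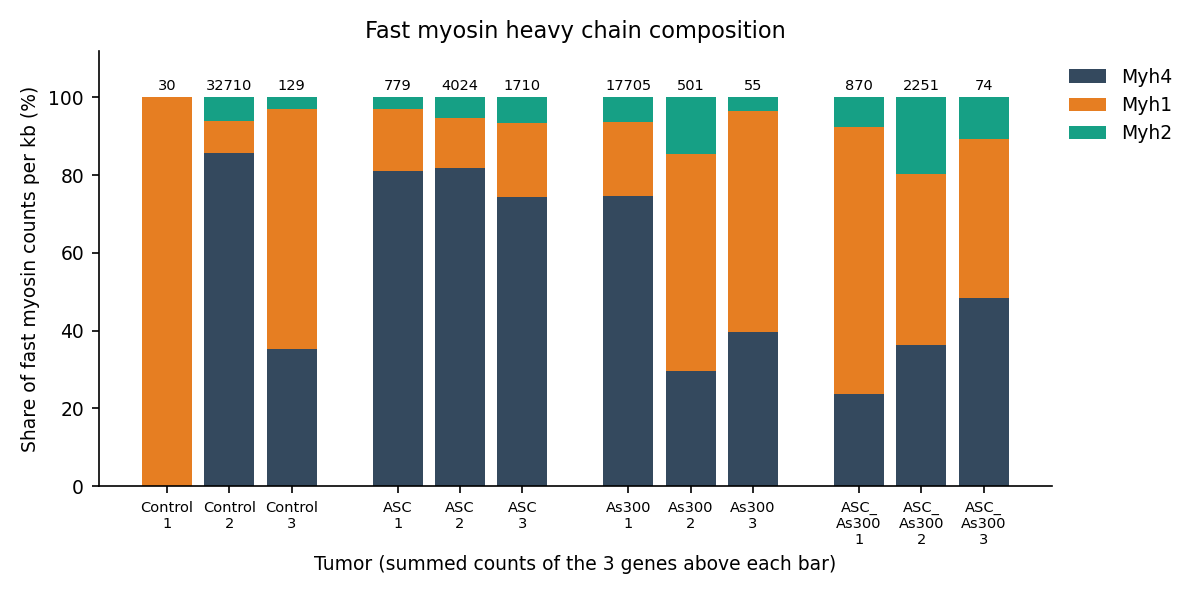
Share of Myh4, Myh1 and Myh2 in their summed counts per kilobase (y axis, percent) in each tumor (x axis), with the summed counts of the 3 genes above each bar. Myh4 made up 74.3% to 85.7% in Control replicate 2, As300 replicate 1 and the ASC tumors and 23.8% to 36.4% in the other tumors with at least 100 counts.

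Proportions to Acta1, chosen after the values were seen, also varied between tumors. In the 8 tumors with at least 100 Acta1 counts, Actn3 counts were 19.6% of Acta1 counts in Control replicate 2, 21.2%, 15.3% and 12.6% in the ASC tumors, 8.59% and 6.08% in As300 replicates 1 and 2, and 5.81% and 4.42% in ASC_As300 replicates 1 and 2. Pvalb, the calcium buffer parvalbumin of the fastest fibers, gave 18.9%, then 21.1%, 13.0% and 10.3%, then 7.97% and 5.68%, then 5.89% and 4.28% in the same order. Mb, the oxygen-binding myoglobin of oxidative fibers, kept to 3.21% to 6.13%, a 1.91-fold range. The ratio spanned 2.2-fold for Tnnt3, 2.9-fold for Ckm, 3.74-fold for Atp2a1 and 4.1-fold for Myh1. It spanned 4.73-fold for Myh2, 4.80-fold for Actn3, 4.93-fold for Pvalb and 7.31-fold for Myh4. These ratios between genes are not corrected for length and are compared only across tumors. Ckm was at 15.8% to 45.8% and Atp2a1, the calcium pump of fast sarcoplasmic reticulum, at 19.6% to 73.3% of Acta1 counts. In the 4 tumors left out, with 24 to 82 Acta1 counts, Actn3 was at 16.7% and 37.5% in Control replicates 1 and 3, 38.6% in As300 replicate 3 and 13.4% in ASC_As300 replicate 3, from 4 to 30 counts. Pvalb was at 0%, 23.8%, 63.2% and 18.3% there, from 0 to 36 counts. Among the 8 tumors, the Actn3 and Pvalb ratios were higher in each tumor without iAs than in any with iAs, whereas those of Ckm, Atp2a1 and Mb overlapped. The separation was seen after the fact and was not tested. Over all 12 tumors the Actn3, Pvalb, Myh4 and Tnnt3 ratios overlapped, but the 4 added tumors have too few counts to place a ratio.

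Genes outside the 10 that were most like them in pattern were also muscle genes. By Pearson r of log2 CPM with the member score (the mean log2 CPM of the 10) over the 12 tumors, the leading 12 were Atp2a1 (r = 0.996), Smpx (0.990), Lmod3 (0.987), Fbxo40 (0.984), Myl1 (0.980), Myom2 (0.979), Pgam2 (0.975), Trdn (0.970), Pvalb (0.968), Myot (0.966), Cox6a2 (0.966) and Hrc (0.965). Atp2a1 was at 337.7 CPM in Control replicate 2, 308.2 CPM in As300 replicate 1 and 71.7 CPM in ASC replicate 2, and at 0.165 CPM in Control replicate 1. In all, 49 genes outside the members had r over 0.9. The lowest were Cyp2c52-ps (r = -0.950), Cdc26 (-0.927), Plek2 (-0.884) and Gm43747 (-0.864), and Cdc26, an anaphase-promoting complex subunit, spanned 33.9 to 43.1 CPM.

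Among other sarcomere genes, 26 were tested and 0 were called in any comparison against Control, 19 had r over 0.9 with the member score and all 26 over 0.7. Ttn, the giant spring protein titin, was at 180.9 CPM in Control replicate 2 and 224.0 CPM in As300 replicate 1 and at 1.19 to 52.8 CPM elsewhere. Myl1, the fast essential light chain, was at 115.6 and 110.8 CPM against 0 to 15.6 CPM. Tpm2 (88.1 to 183.5 CPM) and the chaperone Cryab (7.95 to 71.3 CPM) were present in every tumor, and As300 replicate 1 was highest for both.

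Of the genes of calcium handling and excitation, 19 were tested, 0 were called against Control, 6 had r over 0.9 and 12 over 0.7. Ryr1, the calcium release channel, reached 41.4 CPM in Control replicate 2 and 37.0 CPM in As300 replicate 1 against 0.537 to 10.5 CPM elsewhere, and the calcium store protein Casq1 42.1 and 34.0 CPM against 0.257 to 10.3 CPM. Of 21 muscle energy genes 0 were called, 5 had r over 0.9 and 10 over 0.7. The most abundant of that list were shared with other tissues and followed the members less: Aldoa (993 to 1537 CPM, r = 0.311), Slc25a4 (358 to 516 CPM, r = 0.008), Pfkm (61.3 to 114.6 CPM, r = 0.628) and Eno3 (44.1 to 119.5 CPM, r = 0.689).

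Slow, cardiac and developing forms followed the members less closely than other sarcomere genes, with median r of 0.779, 0.219 and 0.681 beside 0.926. Low counts limit what r can show for many of them, and the slow genes Myl2 and Myl3 had a median of 0 CPM. The developing median rests on 3 genes. Of 9 slow skeletal genes 0 had r over 0.9, 6 had r over 0.7 and 0 were called against Control. Myh7, the slow myosin, was at 10.4 CPM in Control replicate 2, 6.70 CPM in As300 replicate 1 and 2.36 CPM in ASC replicate 2 and at 0 to 0.245 CPM elsewhere, and Tnnc1 and Tnni1 reached 3.34 and 2.70 CPM, both in Control replicate 2. Tpm3, which non-muscle cells also make, was at 591.7 to 738.9 CPM in all tumors. Of 10 cardiac genes 7 were tested, 0 were called, none had r over 0.7, Tnnt2 was the highest at 1.62 to 6.28 CPM, and the atrial light chain Myl7 had 0 counts in all 12 tumors. Of the developing muscle genes 3 of 7 were tested, and the perinatal Myh8 reached 2.49 CPM in Control replicate 2 and the embryonic Myh3 0.249 CPM.

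Regulators and other genes of the muscle lineage did not follow the members as closely in these values. Of 16 such genes 10 were tested, 0 were called against Control and 1 had r over 0.7. That gene was Cdh15 (r = 0.757), a cadherin and not a transcription factor. Mef2d (141.6 to 176.8 CPM), Mef2a (63.4 to 112.2 CPM), Srf (38.5 to 47.4 CPM) and Six4 (22.6 to 34.8 CPM) were present in every tumor, with r from -0.159 to 0.074. The muscle-restricted regulators, named after their values were seen, were at most 1.63 CPM (Myf6), 1.03 CPM (Myog) and 0.625 CPM (Myod1), each in As300 replicate 1, with a median of 0 CPM for Myog and Myod1. Myf6 and Myog had r of 0.67 and 0.657, and Myod1 was not tested. Counts this low limit what r can show for them.

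**Figure D5:**
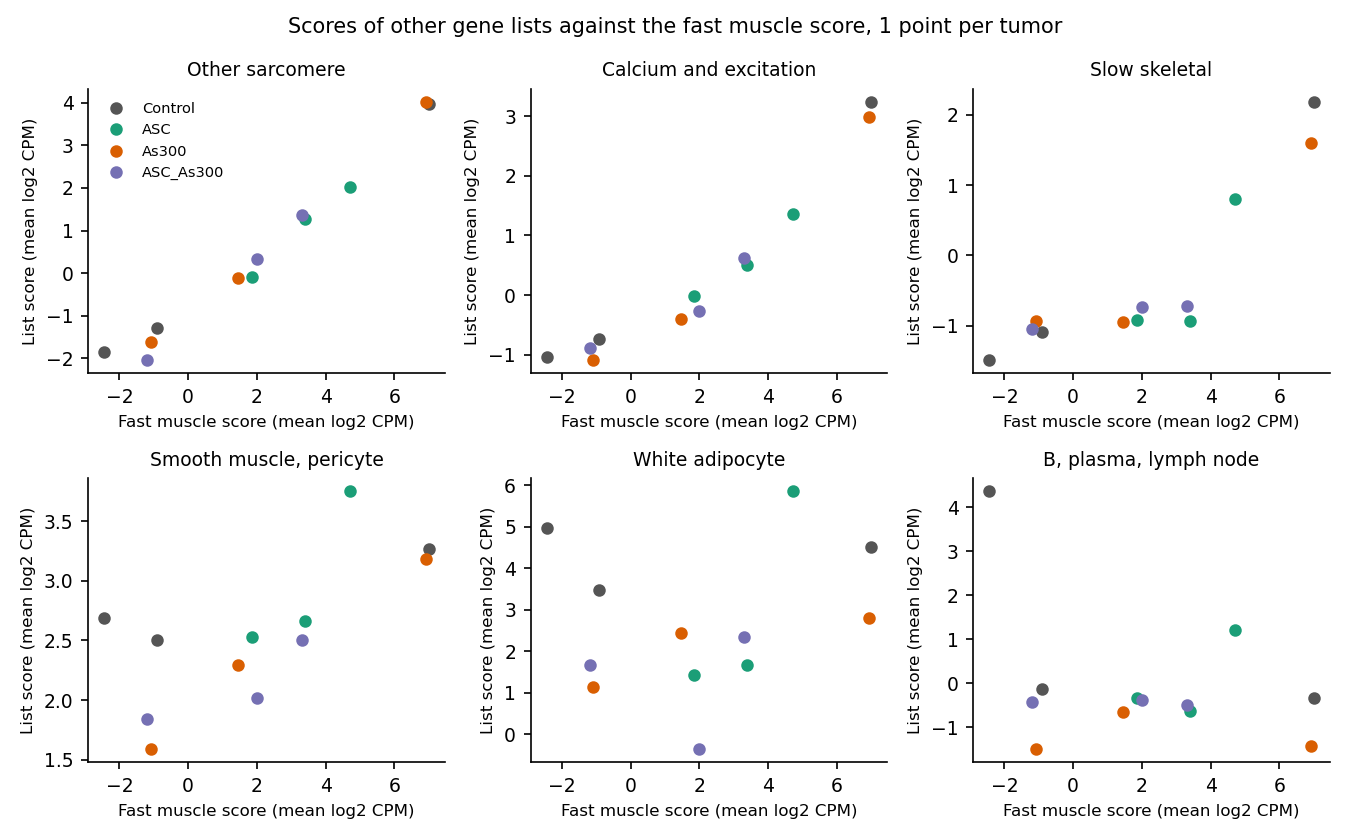
Scores of 6 other gene lists (y axes, mean log2 CPM of the tested genes) against the fast muscle score (x axes, mean log2 CPM of the 10 members), 1 point per tumor, colored by group. Other sarcomere and calcium genes were higher in tumors with a higher fast muscle score, whereas white adipocyte scores and B cell, plasma cell and lymph node scores did not keep its order.

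Markers of other tissue that a flank tumor could hold were set beside the fast muscle score, as descriptions over 12 tumors. Of 14 lists, smooth muscle and pericyte genes had the highest Pearson r (0.702, Spearman 0.629, r = 0.572 without Control replicate 2 and As300 replicate 1), and that list includes Des and Synm, which skeletal muscle also uses. Des was at 151.2 CPM in As300 replicate 1 and 55.5 CPM in Control replicate 2 and at 1.41 to 26.2 CPM elsewhere. The 12 white adipocyte markers had r = 0.201 and summed to 541.0 CPM in Control replicate 2 and 236.2 CPM in As300 replicate 1, against 1291 CPM in ASC replicate 2, 684.6 CPM in Control replicate 1 and 83.1 to 276.3 CPM in the other 8 tumors. B cell, plasma cell and lymph node markers had r = -0.363 and were at 15.2 and 10.4 CPM in the 2 tumors with the most muscle RNA. Schwann and nerve markers had r = 0.539, which was 0.0716 without those 2 tumors, and erythroid markers 0.593. Stromal markers had r = 0.6, with the highest Spearman value of the 14 lists (0.713) and r = 0.724 without those 2 tumors. The part of any of these tissues in the spread of the fast muscle genes was not tested. Total counts correlated with the member score at r = -0.475 (Spearman -0.434), and the part of depth was not tested either.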

How the data were processed

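Poly(A) RNA was sequenced from 12 day 21 tumors, 3 per group, with a stranded paired-end protocol. The authors deposited whole-number counts per gene, not normalized. The submitters' processing notes name Cutadapt 1.1.0, HISAT2 2.0, StringTie 1.3.4, DESeq2 and edgeR; the genome build, annotation and counting step are not given in the sources used here. Groups followed the labels. The members and all lists were chosen with earlier results of these data known.

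The deposited counts of 55401 genes were analysed with edgeR 4.0.16 (R 4.3.3): filterByExpr by group (20818 genes), TMM, and quasi-likelihood F tests with 1 mean per group over all 12 tumors, adjusted by Benjamini-Hochberg over all genes tested; fold changes carry the SE from the F statistic. CPM used TMM library sizes, and log2 CPM a prior count of 2. All 10 members were named, with full test values for the 3 with the highest mean CPM; up to 4 genes per list, by mean CPM, were named, with the 12 genes most like and the 4 least like the member score. Alternatives were DESeq2 1.42.0, its size factors, 2 filters, a robust fit, counts divided by 4, a replicate block, the 6 tumors of a comparison and leaving out each tumor. The fit was tested on simulated data. Exon lengths and 75-base windows came from GENCODE M21 and promoters from RefSeq.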

Additional observations from a re-analysis of the deposited data

How the results depend on the processing

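With 3 tumors a group and members spanning several log2 units, differences of the size fitted here were not detectable, and counts under 12 limit what the lowest tumors show. In no fit that was run was a member called in any comparison. Of 263 alternative values from planned settings other than leaving out a tumor, 9 moved by over 1 SD between tumors or, for counts of genes, by over 1.5 times, and 9 values of a named gene changed sign. Medians over the members could change sign within that SD: the As300 median, -0.03, was between 0.002 and 0.10 with DESeq2, its size factors, counts divided by 4, at least 10 counts in every tumor or the 6 tumors of the comparison. Against Control, DESeq2 called 448 genes for ASC, 794 for As300 and 356 for ASC_As300, with 123 for the interaction and 2258 for any difference among the 4 groups, against 150, 220, 168, 0 and 317 in edgeR; the cause was not tested. In As300 against Control 8 genes were called with no filter, 454 with at least 10 counts in every tumor (5 members left) and 460 with counts divided by 4, and in ASC against Control 89 were called from the 6 tumors of the comparison alone. The Ckm log2 fold change in As300, -0.02, was 0.023 with DESeq2, 0.019 with its size factors, 0.018 with counts divided by 4 and 0.013 from the 6 tumors alone.

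Leaving out 1 tumor at a time gave 105 to 355 genes called in ASC, 0 to 399 in As300, 90 to 203 in ASC_As300, 0 to 1 for the interaction and 172 to 570 for any difference. The member median ranged from -2.62 to 5.41 in ASC, -4.71 to 7.28 in As300, -4.34 to 3.60 in ASC_As300 and -8.50 to 3.25 for the interaction; leaving out Control replicate 2 gave the highest median in each comparison against Control and the lowest for the interaction, and leaving out As300 replicate 1 gave the other end for As300 and the interaction. Acta1 ranged from -2.27 to 5.73, -4.27 to 7.76, -3.57 to 4.64 and -8.85 to 3.19 in the same order, Myh4 from -3.09 to 6.48, -6.73 to 7.85, -6.28 to 3.83 and -10.51 to 4.09, and Ckm from -3.16 to 6.13, -5.34 to 8.06, -4.90 to 4.09 and -10.10 to 3.31. The within-group range of the member score, in log2 units, was 1.53 to 9.43 among Control tumors, 1.32 to 2.87 among ASC, 2.54 to 8.01 among As300 and 1.31 to 4.50 among ASC_As300. Over all settings the adjusted p ranged from 0.152 to 0.995 for Acta1, 0.168 to 0.991 for Myh4 and 0.15 to 1.0 for Ckm in As300 against Control.

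Leaving out Control replicate 2 and As300 replicate 1 together, chosen after seeing the data, gave a member median of 5.39 in ASC and 3.59 in ASC_As300, with 0, 98 and 158 genes called in As300, ASC_As300 and the 4-group test. Acta1, Myh4 and Ckm were then at 5.71, 6.46 and 6.11 in ASC and 4.63, 3.81 and 4.08 in ASC_As300, and Myh4 and Ckm at 1.79 and 2.71 in As300.

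Replicate numbers did not pair the tumors: deviations from group means correlated at -0.124 to 0.172 between same-numbered tumors and -0.222 to 0.246 between others. With the replicate block, the member median was 0.53 in ASC, 1.07 in As300, -2.58 in ASC_As300 and -4.04 for the interaction. Acta1, Myh4 and Ckm were then at 1.32, 0.64 and 0.27 in ASC, and Myh4 and Ckm at 1.08 and 1.05 in As300, and no member was called.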
